A study of Mus musculus with 42 samples.

Results

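Monocarboxylate transporters and their organic anion relatives move lactate, pyruvate, short-chain fatty acids, ketone bodies, carnitine, thyroid hormone and prostaglandins across cell membranes, and 9 genes of this kind were followed through 12 expression tables of the mouse colon. The members are Slc16a1, Slc16a3, Slc16a7, Slc16a9, Slc16a10 and Slc16a13 of the monocarboxylate transporter family, Slc5a8 of the sodium-coupled family, and Slco2a1 and Slco3a1 of the organic anion transporting polypeptides. They were chosen by name, as 9 of the 19232 gene names in the tables. A row was present in every table for 7 of them. Slco3a1 had no row in distal goblet cells or in organoids, and Slc16a7 had none in the table of IL-17A at 72 h.

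The tables hold 42 RNA-seq libraries. Goblet cells were sorted by a Muc2-mCherry reporter from Gli1-CreERT2 control mice (GWTM2) and from mice with floxed Smad4 (GS4M2) or floxed Alk3 (GA3M2), where Alk3 is the BMP receptor that the tables list as Bmpr1a. Stromal cells were sorted by a tdTomato reporter that the same Cre switches on, from the matching control (GWTT), Smad4 (GS4T) and Alk3 (GA3T) mice. Every mouse, controls included, carried Gli1-CreERT2 and received tamoxifen, 100 µl of a 20 mg/ml solution per day on consecutive days, and cells were collected on day 30 from the proximal and the distal colon, with 2 libraries per group. Mice of both sexes, 2 to 4 months old, were used. Cre is driven by Gli1, so the deletions lie in Gli1-expressing stromal cells, and the sorted goblet cells keep both genes. Colonic organoids from wild-type mice, which contain epithelium and no stroma, grew in a medium with EGF, Noggin, R-spondin1, Wnt3a and CHIR, and received 10 nM IL-1 (IL-1α with IL-1β), 10 nM IL-17A or neither for 12 h or 72 h, with 3 libraries per group. The labels do not say how many mice or cultures stand behind a library, so p-values measure the spread between these libraries, which may be partly technical.

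In the colon, bacteria ferment fibre to butyrate, propionate and acetate, and epithelial cells take these acids up and burn them. Slc16a1 (MCT1) carries them and lactate together with a proton and can run in either direction, while Slc5a8 draws them in with sodium and is a known product of the mature colonic surface epithelium. Slc16a3 (MCT4) is known as the lactate exporter of glycolytic cells, and Slc16a7 (MCT2) has a higher affinity for lactate and pyruvate. MCT1 and MCT4 need the membrane glycoprotein Bsg (basigin) to reach the cell surface, and MCT2 uses its relative Emb (embigin). Slc16a9 (MCT9) has been tied to carnitine transport, and Slc16a10 (TAT1, MCT10) carries aromatic amino acids and thyroid hormone. Slc16a13 (MCT13) is a less studied relative. Slco2a1 is the prostaglandin transporter that takes up prostaglandins for breakdown, and Slco3a1 carries organic anions including prostaglandins.

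On GRCm38 with GENCODE M21, Slc16a1 lies at chr3:104638668-104658462 on the plus strand and Slc16a3 at chr11:120948480-120960868 on the plus strand. Slc16a7 lies at chr10:125219270-125389465 on the minus strand, Slc16a9 at chr10:70245100-70285968 on the plus strand and Slc16a10 at chr10:40033532-40142258 on the minus strand. Slc16a13 lies at chr11:70216789-70221064 on the minus strand and Slc5a8 at chr10:88885992-88929515 on the plus strand. Slco3a1 lies at chr7:74275419-74554780 on the minus strand and Slco2a1 at chr9:102988712-103096002 on the plus strand.

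The study designed qPCR primers for 3 of the members, and they show which part of each transcript such an assay reads. Every primer matched the last exon of its gene, exon 6 for Slc16a9 and Slc16a10 and exon 10 for Slco3a1, within the 3′ untranslated region, with products of 103, 101 and 101 bases in that order. On GRCm38 the products span chr10:70285550-70285652, chr10:40036720-40036820 and chr7:74282883-74282983.
Slc16a9 forward: gggacacctgaagcactttat
Slc16a9 reverse: ggactgactatgcgatggaatc
Slc16a10 forward: tgtcagtccctcttggtatct
Slc16a10 reverse: aggtttaggttggcctcttatt
Slco3a1 forward: gtccaatgggcattcctctta
Slco3a1 reverse: acacaccctctctctcctatc

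Slc16a1 and Slc16a3 were called in the same direction with other glucose-to-lactate genes in the stromal data described further on, so their RefSeq promoters (GRCm38.p6, 250 bases before to 50 after the start, plus strand) are printed here. Capitals mark each ACGTG or GCGTG, the core letters read by hypoxia-inducible factors, and each GGCGCC, a motif of BMP-regulated Smads, on either strand. An ACGTG can overlap its own reverse complement within CACGTG and is then counted once per strand. The Slc16a1 promoter, at chr3:104638414-104638713, held ACGTG 3 times, GCGTG 2 times and GGCGCC 2 times. The Slc16a3 promoter, at chr11:120948817-120949116, held ACGTG 2 times, GCGTG 0 times and GGCGCC 4 times.
Slc16a1 promoter: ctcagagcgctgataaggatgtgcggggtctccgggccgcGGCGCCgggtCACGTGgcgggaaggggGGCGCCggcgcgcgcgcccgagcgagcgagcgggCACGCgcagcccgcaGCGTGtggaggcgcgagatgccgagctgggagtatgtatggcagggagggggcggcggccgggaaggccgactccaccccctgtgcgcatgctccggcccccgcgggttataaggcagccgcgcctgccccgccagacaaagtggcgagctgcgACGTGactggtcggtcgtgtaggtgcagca
Slc16a3 promoter: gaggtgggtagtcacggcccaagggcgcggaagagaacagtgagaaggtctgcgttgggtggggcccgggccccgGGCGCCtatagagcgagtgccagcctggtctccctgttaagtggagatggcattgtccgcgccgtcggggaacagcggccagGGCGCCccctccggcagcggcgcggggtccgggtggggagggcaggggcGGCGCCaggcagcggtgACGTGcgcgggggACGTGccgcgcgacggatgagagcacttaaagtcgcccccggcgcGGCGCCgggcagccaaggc
Among 32851 RefSeq promoters of the same length, 19.6% held ACGTG, 32.4% held GCGTG, 11.9% held GGCGCC and 43.8% held either of the hypoxia cores. Of the other members with a promoter entry, 6 of 9 in all, Slc16a9 and Slc5a8 each held GCGTG 1 time, Slc16a10 held it 2 times and Slco2a1 held ACGTG 1 time. GGCGCC was present in none of those 4. The letters have GC contents of 73.7% and 73.3% in the pair printed, and a match describes the sequence and is no evidence of binding.

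Values are gene counts divided by 1 size factor per library, scaled within each table, and are called normalized counts below. Depth was 15647603 to 20783127 reads in goblet libraries, 14222902 to 23686940 in stromal libraries and 14815170 to 17665812 in organoid libraries. A gene is called when its Benjamini-Hochberg adjusted p from limma is under 0.05 over all genes tested and its change is at least 2-fold. Member counts at an unadjusted p that stand without a gene count have no background, and nothing is read from them. Where DESeq2 called members, its count over all genes is in the closing section on processing. Both knockouts of a cell type and segment share their control libraries, as do both cytokines at a time, so similar values in such a pair of comparisons are not independent. In proximal GS4M2 data a listing in the study names the groups the other way round from the deposited column names, and the deposited names are used here since the libraries under the control name hold the same reads as the controls of the GA3M2 table. Among stromal libraries Gli1 stood at 23.9 normalized counts in GS4T proximal 2 and 34.7 in GA3T proximal 2, against 642 or more in the other libraries of those tables. The summed level of 8 goblet cell markers was 9084 to 61477 CPM, the reads of a gene scaled to the same total in every library, in goblet libraries, lowest in proximal GA3M2 cells, and that of 9 stromal markers was 42199 to 58568 CPM in stromal libraries. Fewer cells of a type and less RNA per cell cannot be told apart in such bulk libraries.

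In control cells the members divided by cell type. Slc16a1 and Slc5a8 led in goblet cells, Slco3a1 led in stromal cells, and Slc16a1 with Slc16a3 led in organoids. On a scale of CPM per kilobase of merged exon, which allows levels of different genes to be compared, Slc16a1 was 36.6 ± 7.83 in proximal and 41.1 ± 22.9 in distal GWTM2 cells, and Slc5a8 was 26.2 ± 2.52 and 43.1 ± 20.4 there (SD, n = 2 each). Every other member stayed at or below 3.42 in those groups. Slco3a1 was 17.2 ± 0.96 in proximal and 12.4 ± 1.20 in distal GWTT stroma, followed by Slc16a1 at 9.49 ± 1.90 and 6.48 ± 0.36 (SD, n = 2 each). In 12 h control organoids Slc16a1 was 67.7 ± 8.18, Slc16a3 was 35.2 ± 17.0 and Slc5a8 was 14.4 ± 10.3 (SD, n = 3 each). Bsg, the partner of MCT1 and MCT4, was far above them, at 514 in proximal goblet cells, 163 in proximal stroma and 537 in organoids on the same scale. Emb was 3.69 in proximal and 2.74 in distal stroma.

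**Figure D1:**
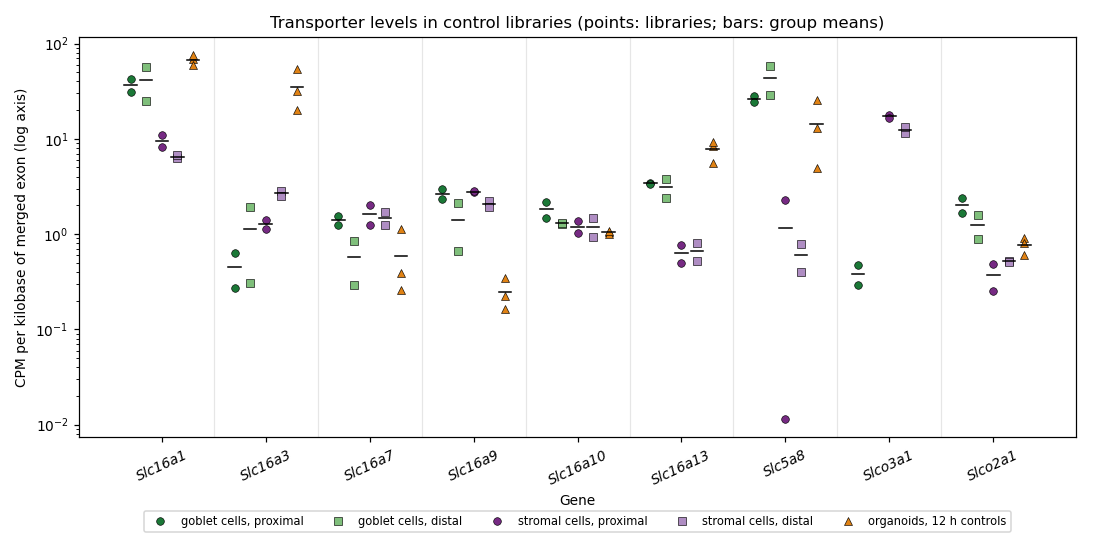
Level of the 9 transporters in control groups, as CPM per kilobase of merged exon on a log axis, with points for libraries and bars for group means. Slc16a1 and Slc5a8 stand highest in goblet cells (36.6 and 26.2 in the proximal colon), Slco3a1 stands highest in stroma (17.2), and Slc16a3 is high in organoids only (35.2 at 12 h).

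By CPM over all 18 groups, Slc16a1 ranged from 463 in organoids after IL-1 for 72 h to 28.7 in distal GWTT stroma, and the 6 organoid groups came before every sorted group without overlap at that step. Slc16a3 ranged from 270 CPM after IL-1 for 72 h to 2.41 in proximal GWTM2 cells. Slco3a1 ranged from 146 CPM in proximal GWTT stroma to 0.41 in proximal GA3M2 cells. The lowest groups of Slc16a10 and Slc16a7 were both organoids after IL-1 for 72 h, at 1.00 and 1.17 CPM, while their highest were proximal GWTM2 cells (13.4) and proximal GWTT stroma (19.4). Slc16a9 was highest in proximal GWTT stroma (10.8 CPM) and lowest in organoids after IL-17A for 12 h (0.72). Slc16a13 ran from 20.2 CPM in 12 h control organoids to 1.66 in proximal GWTT stroma, and most neighbouring groups in these orders overlapped.

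Control goblet and stromal cells were compared directly on log2(CPM + 0.1), with the segment as a term. In this comparison 5311 of 12327 genes were called, 43.1%, and 5 of the 8 members tested were. Slc16a1 was 4.73-fold higher in goblet cells (log2 difference 2.24, SE 0.27, adjusted p = 0.00014) and Slc16a13 was 4.81-fold higher (2.27, SE 0.26, adjusted p = 9.06e-05). Slco2a1 was 3.59-fold higher (1.84, SE 0.36, adjusted p = 0.0020), and Slc5a8 was higher by 6.38 on the log2 scale (SE 1.17, adjusted p = 0.0014). That value was 5.07 without GWTT proximal 1 and 7.57 without GWTT proximal 2, and it was called without each library in turn. In the other direction, Slc16a3 was 3.15-fold lower in goblet cells (-1.66, SE 0.54, adjusted p = 0.024). This call was lost without GWTM2 proximal 2 (adjusted p = 0.067), GWTT proximal 2 (0.053), GWTT distal 1 (0.062) or GWTT distal 2 (0.054), and the difference was -1.12 without GWTM2 distal 2. Values that did not pass were -0.86 for Slc16a7 (adjusted p = 0.092), -0.44 for Slc16a9 and 0.37 for Slc16a10. The median over all genes was 0.25 in this fit. Slco3a1, with no distal goblet row, could not be tested, and its proximal values were 146 CPM in stroma and 3.25 in goblet cells. Bsg was higher in goblet cells by 1.55 (SE 0.09).

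Between segments no member was called in either control cell type, against 1.53% of 13045 genes in goblet and 1.30% of 15331 in stromal cells. At an unadjusted p under 0.05 there were 1 of 8 members in goblet and 2 of 9 in stromal cells, and edgeR called 0 in each. The largest goblet difference was that of Slc16a7, whose CPM was 14.6 and 18.5 in the proximal and 3.46 and 10.1 in the distal libraries (log2 difference 1.46, SE 0.43, adjusted p = 0.15). In stroma Slc16a3 was 5.99 and 7.54 CPM in the proximal and 13.3 and 15.2 in the distal libraries (-1.07, SE 0.32, adjusted p = 0.14). Among the genes called from the family outside the list of 9, Slc16a11 was higher in proximal goblet cells by 1.53 on the log2 scale and Slc16a12 was lower by 3.57.

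In goblet cells of the proximal colon with Smad4 deleted in the stroma, Slc16a9 was the only member called, 9.82-fold lower, where 43 of 13246 genes (0.325%) were called. The libraries of control and knockout did not overlap for 8 of the 9 members, 6 lower and 2 higher, and for 50.2% of all genes tested. The median log2 fold change was -0.86 over the members and 0.00 over all genes.

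Slc16a9 stood at 153 and 195 normalized counts in GWTM2 proximal 1 and 2 and at 13.7 and 20.4 in GS4M2 proximal 1 and 2, well apart (log2 fold change -3.30, SE 0.33, adjusted p = 0.029). It was called by edgeR (adjusted p = 0.022) and DESeq2 (adjusted p = 1.1e-11). It was not called in the fit over all goblet libraries (-3.21, adjusted p = 0.072), nor without GWTM2 proximal 2 (adjusted p = 0.12) or GS4M2 proximal 1 (adjusted p = 0.056).

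The butyrate carriers had the most reads. Slc5a8 was 2539 and 2231 normalized counts in GWTM2 cells and 792 and 1274 in GS4M2 cells, with a log2 fold change of -1.24 (SE 0.22, adjusted p = 0.091). Slc16a1 was 2339 and 3195 in controls and 1276 and 1770 in GS4M2 cells (-0.86, SE 0.21, adjusted p = 0.14). For both genes each knockout library lay below each control library. The lactate exporter Slc16a3 went the other way, from 57.5 and 24.8 to 164 and 209, with all knockout libraries higher (2.26, SE 0.42, adjusted p = 0.094).

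Among the carriers of larger anions, Slco3a1 was 42.1 and 69.1 in controls against 9.46 and 7.12 in GS4M2 cells (-2.58, SE 0.45, adjusted p = 0.089). Slc16a10 was 186 and 273 against 106 and 110 (-1.06, SE 0.24, adjusted p = 0.13). Both were lower in each knockout library. The prostaglandin transporter Slco2a1 was 386 and 559 against 224 and 367, apart by a small margin (-0.69, SE 0.29, adjusted p = 0.30). Slc16a7 and Slc16a13 differed by 0.17 and 0.07, and Bsg by -0.46 (adjusted p = 0.17). DESeq2 on the recovered reads called Slc16a3, Slc16a9, Slc16a10, Slc5a8 and Slco3a1.

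With Alk3 deleted in the stroma, proximal goblet cells showed no called member, where 12 of 13346 genes (0.0899%) were called. At an unadjusted p under 0.05 there were 6 members of 9, without a count over all genes beside it. Of the members edgeR called 0 and DESeq2 called 3, namely Slc16a3, Slc16a9 and Slco3a1. The share of 0.0899% is from limma and is no background for these counts. Slc16a9 was 163 and 207 in controls and 17.1 and 25.8 in GA3M2 cells (-3.06, SE 0.37, adjusted p = 0.066), again without overlap. The groups did not overlap for 7 of 9 members and 52.1% of all genes tested. Slc16a3 was 61.2 and 26.2 against 217 and 547 (3.07, SE 0.57, adjusted p = 0.15), the knockout libraries being higher. Slco3a1 was 44.8 and 73.0 against 8.05 and 7.38 (-2.74, SE 0.50, adjusted p = 0.14).

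Slc5a8 in the same cells was 2703 and 2359 against 1343 and 1431 (-0.86, SE 0.17, adjusted p = 0.15), so each GA3M2 library was lower. Slc16a7 was 265 and 336 against 160 and 177 (-0.82, SE 0.24, adjusted p = 0.24). The groups overlapped for Slc16a1 (0.04) and Slco2a1 (-0.07). A direct test of GS4M2 against GA3M2 was not run.

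Sums of marker lists moved in these libraries too. The sum of 9 absorptive colonocyte markers was 3114 to 6828 CPM in proximal GWTM2, 1126 to 1838 in GS4M2 and 1371 to 3145 in GA3M2 cells. The goblet marker sum was 29837 to 32995, 35567 to 39405 and 9084 to 12631 CPM in that order, and Muc2 fell in proximal GA3M2 cells (log2 fold change -3.63, adjusted p = 0.046). The neutrophil list had 3 of 5 genes measured in the GA3M2 data and 1 in the GS4M2 data. It summed to 0.38 to 1.06 CPM in controls, 5.94 to 13.4 in GS4M2 and 19.8 to 82.1 in GA3M2 cells. Ly6g of this list was also at 133 to 774 CPM in 72 h organoids, which contain no stroma. Whether neutrophils were among the sorted cells was not tested. The macrophage list had 8 of 9 genes measured in GWTM2 and GA3M2 cells and 4 in GS4M2 cells. It summed to 42.2 to 62.6 CPM in controls, 52.9 to 53.9 in GS4M2 and 111 to 129 in GA3M2 cells. Of its genes Lyz2 was called in proximal GA3M2 cells, with a log2 fold change of 8.61 (limma adjusted p = 0.018). The part of these marker shifts in the transporter values was not tested.

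**Figure D2:**
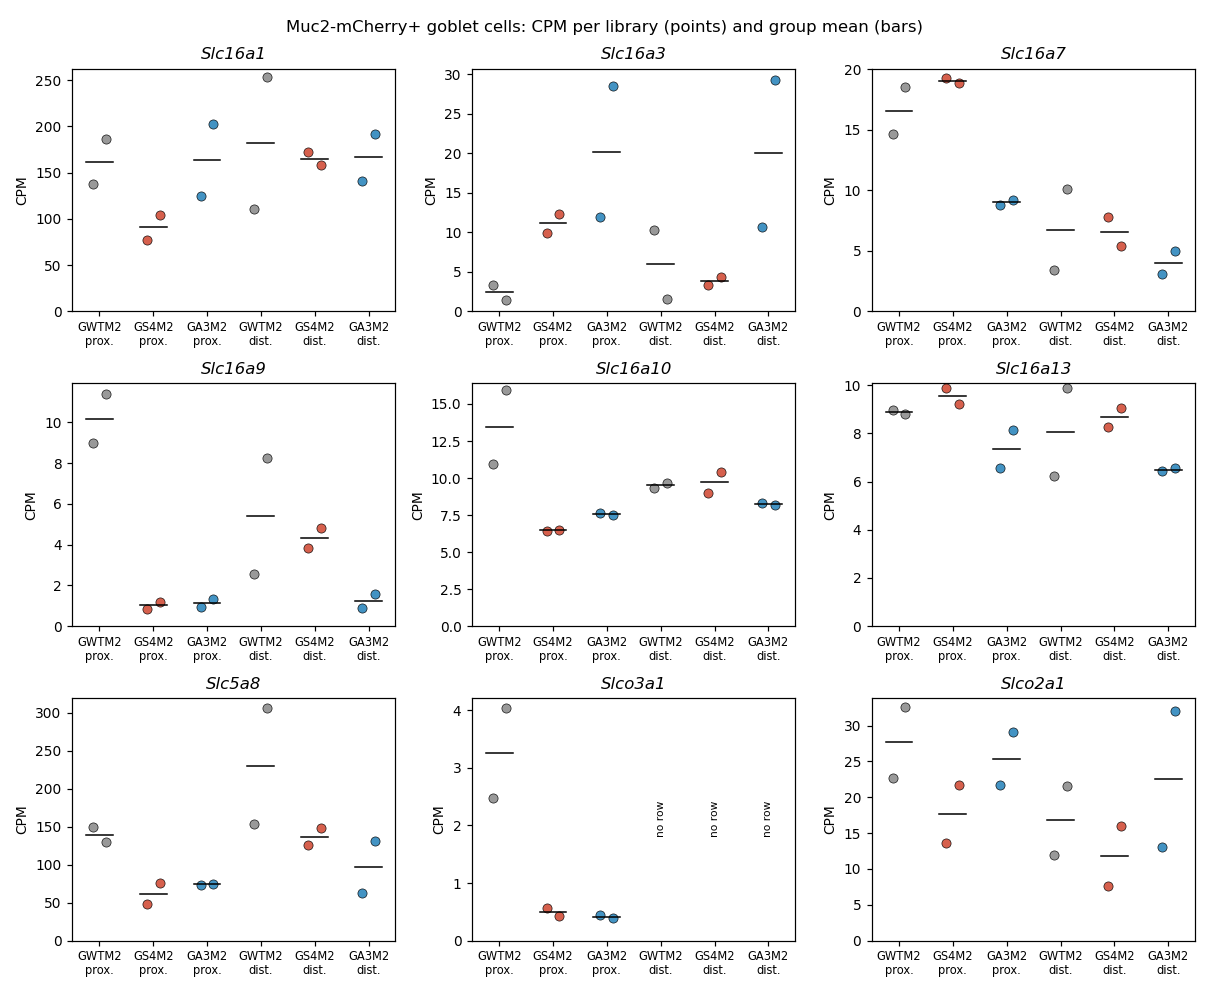
CPM of each transporter in the 12 goblet libraries, 1 panel per gene, with points for libraries and bars for group means. Proximal Slc16a9 and Slco3a1 lie lower in both knockouts than in controls, Slc16a3 lies higher, and the 2 distal control libraries stand far apart for Slc16a1, Slc16a3 and Slc5a8.

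In distal goblet cells no gene was called in either knockout, 0% of 13078 and of 13082 genes, and so no member. At an unadjusted p under 0.05 there were 1389 genes and 0 of 8 members in GS4M2 cells, and 1537 genes and 2 of 8 members in GA3M2 cells. For genes edgeR called 0 in each and DESeq2 150 and 244, and both called 0 members. The distal controls disagreed with each other. GWTM2 distal 1 and 2 had 1958 and 4590 normalized counts of Slc16a1, 183 and 29.4 of Slc16a3, and 2707 and 5549 of Slc5a8. Their absorptive marker sums were 458 and 2569 CPM.

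Slc5a8 was the only member whose distal libraries did not overlap in GS4M2 cells, at 2111 and 2588 (-0.73, SE 0.35, adjusted p = 0.51). Over all genes tested 45.7% did not overlap there, against 1 of 8 members. Slc16a9 there was 45.2 and 149 in controls and 64.5 and 83.7 in knockouts (-0.16, SE 0.60, adjusted p = 0.93). In distal GA3M2 cells Slc16a9 was 43.2 and 144 against 15.7 and 25.9 (-1.92, SE 0.66, adjusted p = 0.39). Slc5a8 was 2590 and 5356 against 1083 and 2141 there (-1.29, SE 0.45, adjusted p = 0.40). Slc16a3 was 175 and 28.4 against 184 and 479 (2.05, SE 0.91, adjusted p = 0.46), with the knockout libraries higher by a small margin. In distal GA3M2 cells 4 of 8 members and 44.2% of all genes tested did not overlap with controls. Without GWTM2 distal 1, limma called Slc5a8 in GS4M2 cells, and Slc16a3, Slc16a9 and Slc5a8 in GA3M2 cells. The neutrophil list summed to 7.94 to 9.01 CPM in distal controls and 73.0 to 125 in distal GA3M2 cells, and its part was not tested.

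Whether a knockout effect differed between segments was tested as an interaction over all goblet libraries. No member was called for either knockout, where 0.0153% (GS4M2) and 0.00767% (GA3M2) of 13045 genes were. At an unadjusted p under 0.05 there were 2 of 8 members for GS4M2 and 0 for GA3M2, and edgeR called 0. The proximal effect of GS4M2 on Slc16a9 exceeded the distal effect by -3.11 on the log2 scale (SE 0.72, adjusted p = 0.93), and that on Slc16a10 by -1.04 (SE 0.31, adjusted p = 0.94).

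In the stromal cells that lost Smad4, the lactate exporter Slc16a3 and the prostaglandin transporter Slco2a1 rose in both segments. In the distal colon Slc16a1 rose as well, and Slc16a7 fell. Smad4 itself was lower by 1.09 on the log2 scale in proximal GS4T cells (adjusted p = 0.010) and by 0.96 in distal cells (adjusted p = 0.042), the second under the 2-fold limit. In the proximal comparison 1472 of 15319 genes (9.61%) and 2 of 9 members were called. In the distal comparison 2130 of 15262 genes (14.0%) and 4 of 9 members were called. The libraries of control and knockout did not overlap for 65.4% of all genes and 5 of 9 members in the proximal colon. In the distal colon this held for 67.5% of all genes and 7 of 9 members.

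Slc16a3 was 101 and 125 normalized counts in proximal GWTT cells and 474 and 432 in GS4T cells, 3.99-fold higher (log2 fold change 2.0, SE 0.20, adjusted p = 0.0081). In the distal colon it was 249 and 216 against 931 and 459, 2.81-fold higher with a wider spread between knockout libraries (1.49, SE 0.34, adjusted p = 0.028). Every GS4T library lay above every control library.

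Slco2a1 was 57.9 and 109 in proximal controls and 314 and 436 in GS4T cells, 4.62-fold higher (2.21, SE 0.37, adjusted p = 0.023). The distal values were 117 and 111 against 320 and 752, 4.26-fold higher (2.09, SE 0.40, adjusted p = 0.018). Again no library overlapped. The 7 markers of endothelium, a known site of Slco2a1, summed to 174 to 183 CPM in proximal GWTT and 89.8 to 146 in proximal GS4T cells, and to 118 to 124 and 61.6 to 225 in the distal colon. Of these markers 3 were called in proximal GS4T cells, with Cdh5 and Vwf higher by 2.46 and 2.07 and Tek lower by a log2 fold change of -2.35, and in distal cells 1 was called, Tek at -1.65. Their part in the Slco2a1 difference was not tested.

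Slc16a1 was 452 and 484 in distal controls and 1146 and 1909 in distal GS4T cells, 3.16-fold higher (1.66, SE 0.24, adjusted p = 0.0083). In the proximal colon it was 610 and 795 against 698 and 1048, and the groups overlapped (0.30, adjusted p = 0.43). The difference between the segments' effects was -1.34 (SE 0.45, unadjusted p = 0.014, adjusted p = 0.38), so a difference between segments was not established, where 0.0261% of 15331 genes were called for this interaction, 0 of 9 members by limma and 0 by edgeR.

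Slc16a7, the high-affinity carrier, was 243 and 331 in distal controls against 141 and 97.5 in distal GS4T cells, 2.41-fold lower (-1.27, SE 0.28, adjusted p = 0.028). In the proximal colon it was 250 and 397 against 186 and 125 (-1.04, SE 0.32, adjusted p = 0.090), also without overlap. Slco3a1, the most abundant member of these cells, was 2566 and 2326 in proximal controls against 1381 and 1755. This change passed the p threshold and not the fold threshold (-0.65, SE 0.15, adjusted p = 0.045), as did the distal change from 1614 and 1831 to 1284 and 1111 (-0.53, SE 0.13, adjusted p = 0.036).

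Slc16a9 was 181 and 180 in proximal controls against 109 and 117 (-0.68, SE 0.22, adjusted p = 0.096) and overlapped in the distal colon (-0.30). Slc16a10 and Slc16a13 were not called in either segment. Slc5a8 was 1.03 and 202 in the proximal control libraries, further apart than its log2 fold change of 3.30 (SE 2.12, adjusted p = 0.33). Those libraries held 11.9 and 442 CPM of the 8 epithelial markers in the same order. Emb, the MCT2 partner, was 294 and 322 in distal controls against 633 and 454 (0.80, SE 0.20, adjusted p = 0.039, under the fold threshold), and Bsg changed by 0.27 there (adjusted p = 0.12).

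These calls rest on 2 libraries a group. In the proximal colon, without GS4T proximal 1, Slc16a3 had an adjusted p of 0.091 and Slco2a1 of 0.12, and without GS4T proximal 2, the library with little Gli1, the values were 0.068 and 0.14, with log2 fold changes of 2.06 and 1.97. In the distal colon only Slc16a1 stayed called without each library in turn (log2 fold change 1.29 to 2.03, adjusted p 0.0074 to 0.042). Slco2a1 and Slc16a3 lost the call without GWTT distal 1 (adjusted p = 0.067 and 0.087) or GWTT distal 2 (0.075 and 0.12), and Slc16a3 also without GS4T distal 1, where its change of 0.98 was under 2-fold. Slc16a7 lost the call without GWTT distal 1 (adjusted p = 0.077), GWTT distal 2 (0.18) or GS4T distal 2 (0.066).

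With Alk3 deleted, no member was called in stroma. In the proximal colon 55 of 15346 genes (0.358%) were called and 3 of 9 members had an unadjusted p under 0.05, with 0 called by edgeR and 2, Slc16a3 and Slco2a1, by DESeq2. In the distal colon 0 of 15414 genes (0%) were called, 2885 genes and 5 of 9 members had an unadjusted p under 0.05, and edgeR called 0 genes and DESeq2 776, with 0 members by either. Bmpr1a was lower by 0.61 in proximal (adjusted p = 0.12) and 0.69 in distal GA3T cells (adjusted p = 0.10).

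Proximal GA3T cells had 273 and 393 normalized counts of Slc16a3 against 107 and 131 in controls (1.46, SE 0.27, adjusted p = 0.092), and 185 and 316 of Slco2a1 against 60.9 and 114 (1.52, SE 0.44, adjusted p = 0.16). Both were higher in each knockout library. Slco3a1 was 1898 and 1406 against 2700 and 2446 (-0.65, SE 0.17, adjusted p = 0.15). In the distal colon the values were 387 and 396 against 284 and 246 for Slc16a3 (0.56, SE 0.17, adjusted p = 0.19) and 204 and 255 against 134 and 127 for Slco2a1 (0.80, SE 0.23, adjusted p = 0.18). Slc16a7 was 187 and 183 against 277 and 377 there (-0.80, SE 0.22, adjusted p = 0.18). The groups did not overlap for 8 of 9 members in each segment of GA3T cells, and over all genes tested for 56.4% (proximal) and 54.3% (distal). The interaction of GA3T with segment called 0.00652% of genes and 0 members by limma and edgeR, with 0 members at an unadjusted p under 0.05.

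Markers of other cell types had other sums in the knockout stroma than in its controls. The 9 macrophage markers summed to 194 to 309 CPM in proximal GWTT, 968 to 1702 in GS4T and 828 to 1502 in GA3T cells, and to 647 to 753, 1253 to 2238 and 806 to 1107 in the distal colon. The 5 neutrophil markers summed to 1.83 to 3.34 CPM in proximal and 2.98 to 5.19 in distal controls, against 62.5 to 69.3 and 147 to 209 in GS4T cells. The 8 epithelial markers summed to 1090 to 1348 CPM in proximal and 587 to 1166 in distal GS4T cells, against 11.9 to 442 and 49.6 to 150 in controls. The 5 smooth muscle markers summed to 321 to 437 CPM in proximal GWTT, 909 to 1213 in GS4T and 713 to 1064 in GA3T cells. In the distal colon they summed to 947 to 984, 929 to 1568 and 1007 to 1116. In proximal GS4T cells Actg2 rose by 2.76 and Acta2 by 1.93. The markers called in distal GS4T cells went opposite ways, Actg2 at 1.95 and Myh11 at -1.25 on the log2 scale. B and plasma cell markers were lower, 428 to 829 against 1566 to 2789 CPM in the proximal and 112 to 449 against 3493 to 4827 in the distal colon. Several of these sums differed in the GS4T groups where Slc16a1 (distal only), Slc16a3 and Slco2a1 were called. The macrophage and smooth muscle sums also differed in proximal GA3T stroma. Neutrophil sums in GA3T cells were 12.2 to 43.5 CPM in the proximal and 16.2 to 17.1 in the distal colon (4 of 5 genes measured there). B and plasma cell sums in GA3T cells were 894 to 937 CPM in the proximal (4 of 5 genes measured) and 1801 to 1947 in the distal colon. Epithelial sums in GA3T cells were 440 to 675 and 360 to 848 CPM, the proximal ones overlapping controls. The part of these shifts in the calls was not tested.

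**Figure D3:**
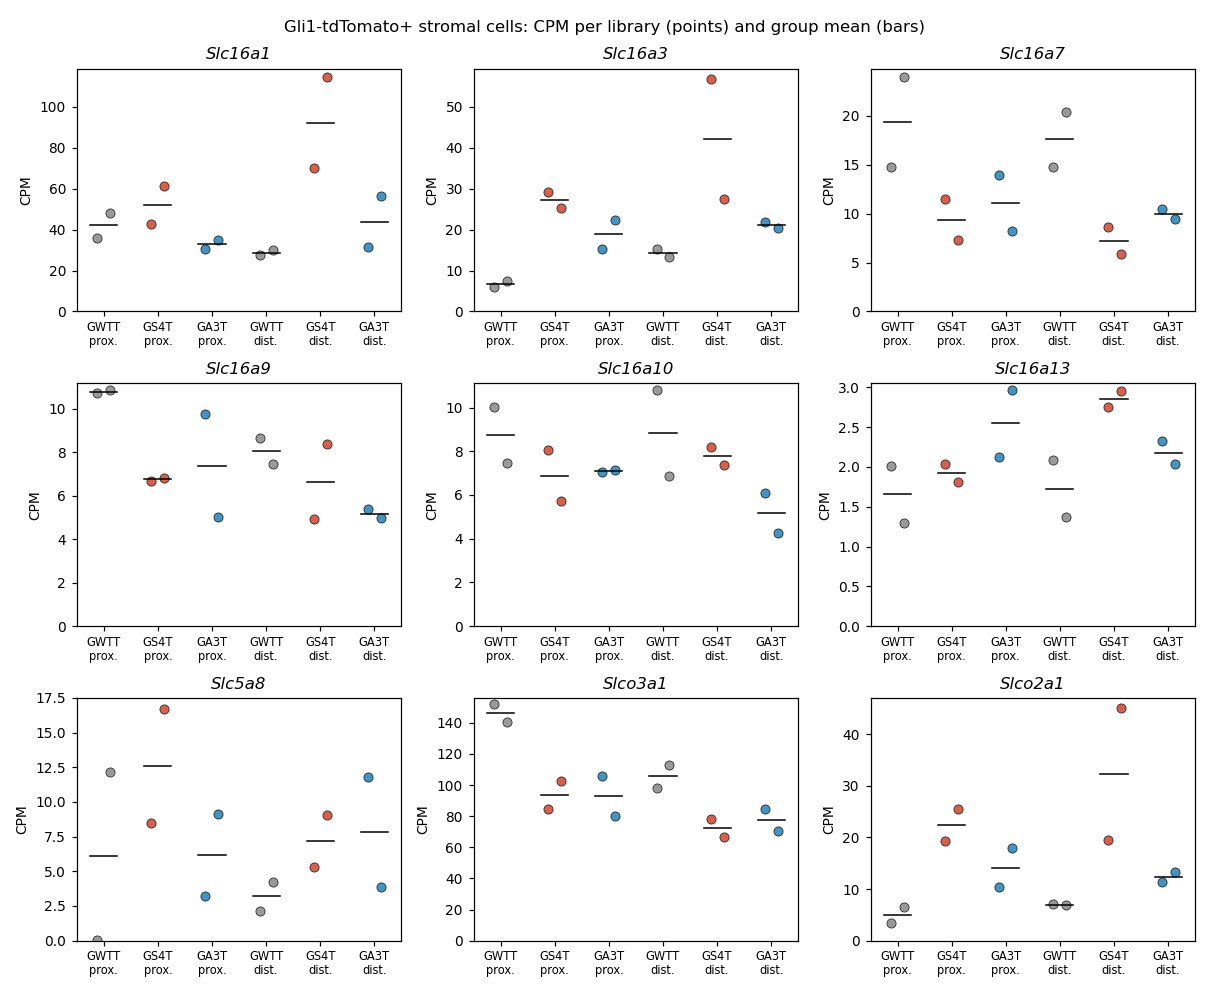
CPM of each transporter in the 12 stromal libraries, 1 panel per gene, with points for libraries and bars for group means. Slc16a3 and Slco2a1 lie above controls in GS4T cells of both segments, Slc16a1 is highest in distal GS4T cells, and Slc5a8 is near 0 in GWTT proximal 1.

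In organoids, 2 of the 3 control libraries at 72 h hold the same reads as control libraries at 12 h. Control 72 h 1 equals Control 12 h 2, and Control 72 h 4 equals Control 12 h 4, so the controls of the later time are largely those of the earlier time, and how long they were cultured is uncertain. Control 72 h 2 also stood close to Control 72 h 4, with a mean chi-square of 3.29 per gene where other pairs not close to identical had 18.1 or more. The libraries IL-1 12 h 3 and 4 (3.03) and IL-17A 12 h 3 and 4 (3.32) were as close, and nothing in the labels says that such a pair came from separate cultures. With each close pair averaged, no member was called at 12 h or after IL-17A for 72 h, and 3 were after IL-1 for 72 h. Results at 72 h are therefore also given without the shared controls. This setting leaves 1 control library, Control 72 h 2, and assumes that it varies like the treated ones. Control 72 h 2 is itself close to the reads held as Control 12 h 4, so the setting supplies no clearly separate 72 h baseline.

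After 12 h no member was called with either cytokine. IL-1 called 7 of 12913 genes (0.0542%) and IL-17A 5 of 12977 (0.0385%). Of 8 members each, 2 had an unadjusted p under 0.05 with IL-1 and 1 with IL-17A, and edgeR and DESeq2 called 0. With IL-1, Slco2a1 was 200, 129 and 168 normalized counts in controls and 263, 224 and 212 in treated organoids (0.50, SE 0.20, adjusted p = 0.89), the only member without overlap. Over all genes tested 9.53% had no overlap with IL-1. Slc5a8 varied widely between control libraries, at 1107, 420 and 2088, against 1582, 3689 and 3448 with IL-1 (1.46, SE 0.60, adjusted p = 0.89). With IL-17A it was 1937, 5218 and 5421 against 1162, 440 and 2186 (1.87, SE 0.64, adjusted p = 0.91), which overlapped. Slc5a8 was called there with the replicate number as a block, on 2 same-numbered pairs, and not with any library left out. Slc16a10 was 90.6, 106 and 112 with IL-17A against 132, 123 and 130, just apart (-0.32). It was the only member without overlap with IL-17A, where 10.9% of all genes tested had none.

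After 72 h of IL-1, Slc16a3, Slc16a9 and Slco2a1 rose and Slc16a7 and Slc16a10 fell, 5 of 8 members tested, where 2998 of 13023 genes (23.0%) were called. Slc16a1 passed the p threshold at 1.85-fold. The members' median log2 fold change was 1.04, against 0.00 over all genes. Treated and control libraries did not overlap for 6 of 8 members and 54.7% of all genes tested.

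The prostaglandin transporter Slco2a1 was 122, 130 and 161 normalized counts in controls and 397, 810 and 1266 after IL-1, 5.39-fold higher (2.43, SE 0.39, adjusted p = 0.0045). Slc16a10 was 111, 128 and 119 in controls and 21.7, 22.9 and 9.87 after IL-1, 6.64-fold lower (-2.73, SE 0.40, adjusted p = 0.0036). The control libraries of Slc16a10 were tight, though Control 72 h 2 and 4 are near-identical over all genes. Every treated library was far below the controls. The lactate exporter Slc16a3 was 2560, 1804 and 1579 against 5191, 4435 and 5358, 2.57-fold higher without overlap (1.36, SE 0.20, adjusted p = 0.0036). These 3 calls held without any single library. Without the shared controls their log2 fold changes were 2.51 for Slco2a1 (adjusted p = 0.083), -2.83 for Slc16a10 (adjusted p = 0.096) and 1.46 for Slc16a3 (adjusted p = 0.067), with 1 gene called in all.

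Slc16a1 was 3938, 5008 and 4928 in controls and 7693, 7917 and 10062 after IL-1, all higher, yet under 2-fold (0.88, SE 0.17, adjusted p = 0.0073). Its partner Bsg rose from 15792, 12235 and 11120 to 50577, 25407 and 29891, 2.61-fold (1.39, SE 0.28, adjusted p = 0.0089). Emb was at most 12.1 in any of these libraries.

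Slc16a9 was low, at 20.4, 11.4 and 9.33 in controls and 62.6, 25.9 and 61.4 after IL-1, 3.39-fold higher (1.76, SE 0.51, adjusted p = 0.029). Slc16a7 was 201, 56.2 and 45.8 against 36.1, 18.9 and 9.87, 4.07-fold lower (-2.02, SE 0.67, adjusted p = 0.046). In both genes the groups were apart, and in both the call was lost without some of the libraries. For Slc16a9 that was so without Control 72 h 2 or 4 or IL-1 72 h 1 or 3 (adjusted p 0.075 to 0.10). For Slc16a7 it was so without any control, IL-1 72 h 2 or IL-1 72 h 3 (adjusted p 0.054 to 0.14). Without the shared controls Slc16a9 was 1.93 (adjusted p = 0.18) and Slc16a7 was -1.51 (adjusted p = 0.31). Slc5a8 (1.19, SE 0.64, adjusted p = 0.17) and Slc16a13 (-0.24) were not called.

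IL-17A for 72 h called Slc16a3 and Slc16a9, 2 of 7 members tested, where 1038 of 13073 genes (7.94%) were called. Treated and control libraries did not overlap for 5 of 7 members and 45.3% of all genes tested. Slc16a3 was 2555, 1794 and 1576 in controls and 4611, 3907 and 6058 after IL-17A, 2.47-fold higher (1.31, SE 0.24, adjusted p = 0.036). Slc16a9 was 20.4, 11.4 and 9.31 against 71.7, 37.6 and 44.1, 3.60-fold higher (1.85, SE 0.46, adjusted p = 0.0499), close to the threshold and lost under several settings. Bsg rose by 1.36 (adjusted p = 0.036).

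IL-17A 72 h 2 stood apart from the other treated libraries. Slco2a1 was 122, 129 and 161 in controls and 390, 172 and 1432 after IL-17A, and Slc16a10 was 111, 127 and 118 against 32.5, 94.1 and 10.1, with replicate 2 nearest to the controls for both. Their values were 1.74 (SE 0.70, adjusted p = 0.12) and -1.87 (SE 0.73, adjusted p = 0.11). Without that library limma called both, Slco2a1 at 2.45 (adjusted p = 0.013) and Slc16a10 at -2.63 (adjusted p = 0.0096), besides Slc16a3 and Slc16a9. Leaving out any other library except Control 72 h 1 ended every call, and without Control 72 h 1 Slc16a3 alone stayed called (adjusted p = 0.048). Without the shared controls no member was called, with Slc16a3 at 1.41 and Slc16a9 at 2.02 (adjusted p = 0.46 for both).

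IL-1 and IL-17A were set against each other by CPM in 1 fit over organoid libraries. No gene of 13200 was called at 12 h or at 72 h (0% each), with 65 and 219 genes at an unadjusted p under 0.05, 0 of 7 members at either time, and 0 genes by edgeR. At 72 h the largest member differences, IL-1 minus IL-17A, were -0.86 for Slc16a10 (SE 0.57) and 0.67 for Slco2a1 (SE 0.54), both with an adjusted p of 0.999.

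Treated organoids at 72 h were also compared with those at 12 h. No control group enters this difference, but control libraries were part of the fit and so of its filter and its spread. Without a control contrast, time in culture and cytokine exposure cannot be told apart here. The near-identical pairs IL-1 12 h 3 and 4 and IL-17A 12 h 3 and 4 counted as separate libraries. The median of all genes lay at -0.25 for IL-1 and -0.24 for IL-17A in this fit. With IL-1, 2672 of 13190 genes (20.3%) and 1 of 7 members were called, Slc16a10 at -2.91 (SE 0.61, adjusted p = 0.0076). Slc16a1 was 0.62 higher (adjusted p = 0.0083, under the fold threshold), Slco2a1 1.50 (adjusted p = 0.055) and Slc16a9 1.19 (adjusted p = 0.061), and edgeR called Slco2a1 and Slc16a9 along with Slc16a10. With IL-17A, 1901 genes (14.4%) and 1 of 7 members were called, Slc16a9 at 1.79 (SE 0.47, adjusted p = 0.020), while Slc16a10 was -1.69 (adjusted p = 0.054). The Slc16a9 call was lost without IL-17A 12 h 3 (adjusted p = 0.061), IL-17A 12 h 4 (0.075), IL-17A 72 h 1 (0.077) or IL-17A 72 h 3 (0.053). Bsg rose with time by 1.09 and 1.06.

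The absorptive marker sum was 1960 to 4420 CPM in 72 h controls, 4916 to 11098 after IL-1 and 2915 to 9789 after IL-17A, lowest among the treated in IL-17A 72 h 2. Ly6g, the only neutrophil marker with a row in organoids, was 133 to 152, 485 to 701 and 255 to 774 CPM. The part of these shifts in the transporter values was not tested.

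**Figure D4:**
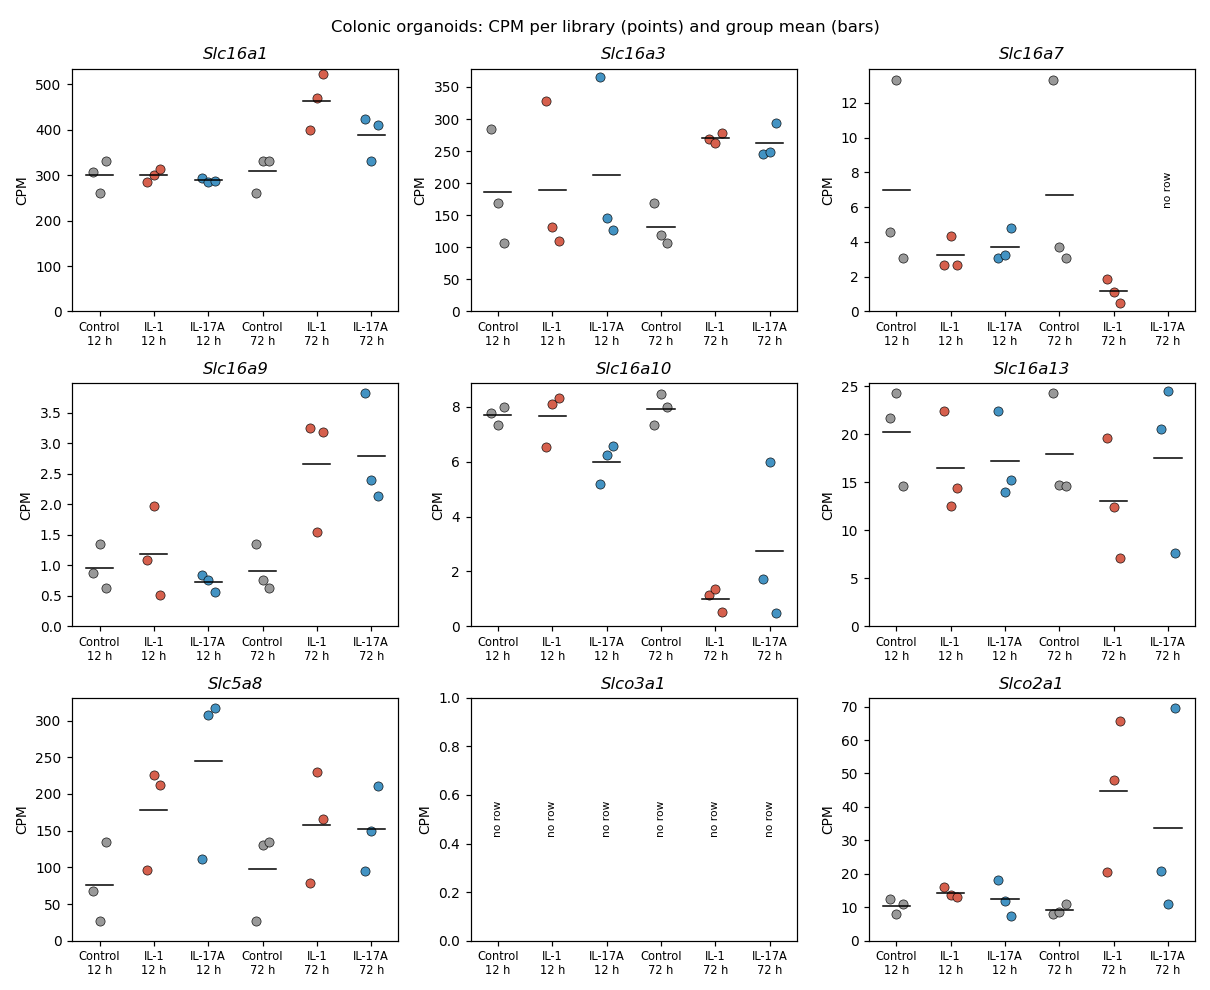
CPM of each transporter in the organoid libraries, 1 panel per gene, with points for libraries and bars for group means. At 72 h Slco2a1, Slc16a3 and Slc16a1 lie above controls and Slc16a10 lies below after IL-1, while for Slco2a1 and Slc16a10 the library IL-17A 72 h 2 lies nearest to the controls.

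**Figure D5:**
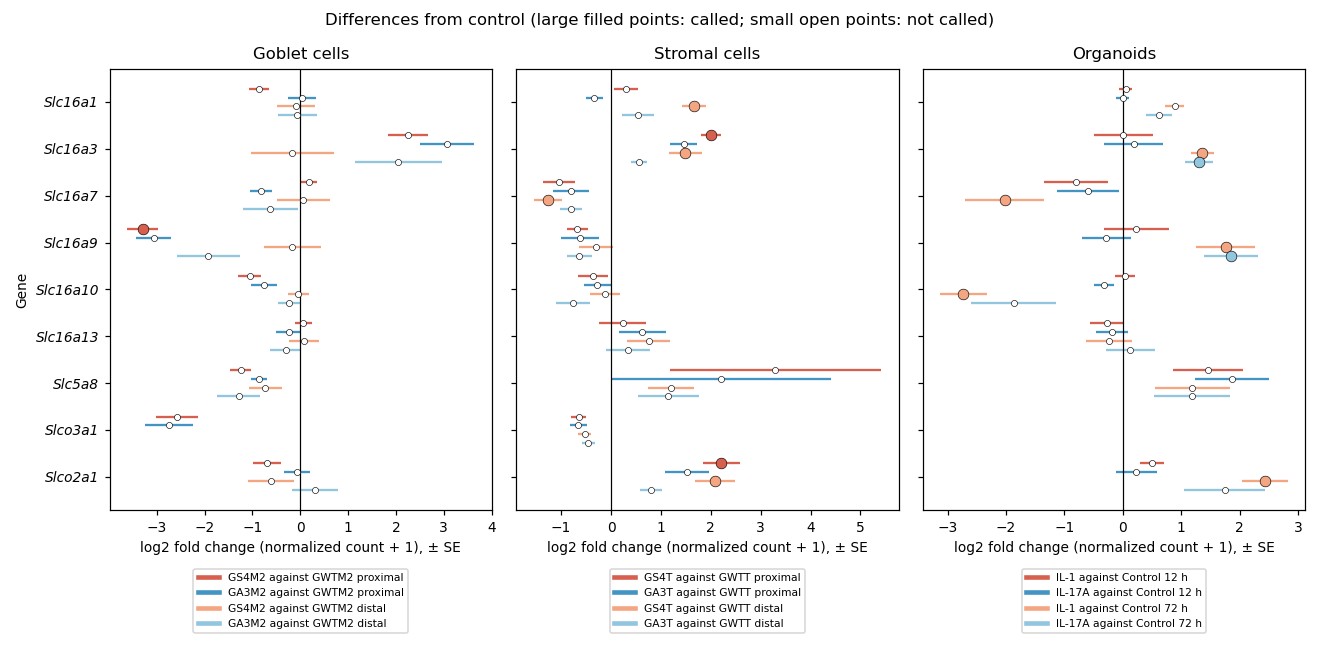
Log2 fold change of each transporter in the 12 comparisons within a table, with bars for the standard error and large filled points for genes called. Slc16a3 is called higher in GS4T stroma of both segments (2.0 and 1.49) and in organoids after either cytokine for 72 h (1.36 and 1.31), and Slc16a9 is called lower in proximal GS4M2 goblet cells (-3.30) and higher in those organoids (1.76 and 1.85).

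Genes around the transporters were read from fixed lists written with earlier results of these data known. Their counts are therefore not independent of the data. In the 4 goblet comparisons limma called 0 of 67 to 71 such genes, with 8 to 29 at an unadjusted p under 0.05, and edgeR called 0 and DESeq2 2 to 8. In GA3T stroma limma and edgeR called 0 of 78 proximal and 0 of 76 distal genes, with 20 and 21 at an unadjusted p under 0.05, and DESeq2 called 5 and 6. In GS4T stroma 11 of 80 were called in proximal and 24 of 77 in distal cells, where 9.61% and 14.0% of all genes were. In organoids at 72 h 19 of 65 were called with IL-1 and 14 of 66 with IL-17A, where 23.0% and 7.94% of all genes were. Among genes that turn glucose into lactate, 4 of 17 were called in proximal and 9 of 17 in distal GS4T stroma, every one higher, with list medians of 0.79 and 1.01 against 0.02 and 0.00 over all genes. The glucose transporter Slc2a1 rose by 1.60 in proximal and 2.32 in distal GS4T cells, and the hexokinase Hk2 by 1.20 and 1.44. In organoids at 72 h 7 of 16 lactate genes rose with IL-1 (median 0.80) and 3 of 17 with IL-17A (median 0.51), Hk2 by 1.22 and 1.38.

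Hypoxia targets gave 6 of 9 called with IL-1 and 6 of 9 with IL-17A at 72 h, all higher, with medians of 1.50 and 1.46. The prolyl hydroxylase Egln3 rose by 2.26 and 2.21 and the peptide hormone gene Adm by 2.19 and 2.80. In GS4T stroma 1 of 9 was called in the proximal and 2 of 9 in the distal colon, Egln3 in both (1.77 and 2.18).

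On the prostaglandin side, 3 of 8 genes of synthesis and breakdown were called in proximal and 2 of 8 in distal GS4T stroma. Hpgd, the enzyme that inactivates prostaglandins once they are taken up, fell by 2.85 in proximal and by 2.53 in distal GS4T stroma. Ptgis, prostacyclin synthase, fell by 2.13 and by 1.43. Ptgs1, a cyclooxygenase, rose by 1.57 in the proximal colon. In organoids at 72 h 1 of 6 was called with either cytokine, the prostaglandin E synthase Ptges, which rose by 2.77 with IL-1 and 2.87 with IL-17A. Of 3 prostaglandin receptors tested, Ptger3 fell by 1.53 with IL-1 and by 1.98 with IL-17A, and Ptger1 rose by 2.04 with IL-1.

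For the thyroid hormone handled by Slc16a10, the activating deiodinase Dio2 rose by 4.69 in proximal and 5.02 in distal GS4T stroma, and the inactivating Dio3 by 2.66 in the distal colon, 1 of 6 and 2 of 5 genes of the list. In organoids at 72 h the thyroid hormone receptor gene Thra rose by 1.73 with IL-1 and 1.74 with IL-17A, 1 of 4 genes each. The lactate receptor Hcar1 fell by 2.81 and the butyrate and ketone body receptor Hcar2 by 1.07 in distal GS4T stroma, 2 of 3 receptors tested. Of 15 genes of short-chain fatty acid and ketone metabolism 2 rose there, Bdh1 by 2.15 and Acsm3 by 2.06. Among relatives of the members, Slco4a1 rose by 2.85 while Slco2b1 and Slco5a1 fell by 2.09 and by 1.79 in distal GS4T stroma, 3 of 4 tested, and Slco5a1 fell by 1.99 in proximal GS4T stroma. Slc16a5 rose by 2.46 with IL-1 and 2.19 with IL-17A in organoids at 72 h.

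The genes whose levels ran most like a member were named by Pearson correlation of log2 CPM over the 12 libraries of a cell type, with no test. Over goblet libraries (10182 genes) Slc5a8 ran closest to the magnesium channel gene Trpm6 (r = 0.97) and the chloride exchanger gene Slc26a3 (0.92), Slc16a9 to Mettl7a1 (0.91) and Gstm3 (0.90), and Slc16a10 to Armh3 (0.87) and Ndufa5 (0.84). Over stromal libraries (11369 genes) Slco2a1 ran closest to Trf (0.97) and Fut4 (0.96), and Slc16a7 to Chd2 (0.97) and Myo9a (0.94). These libraries share genotype groups and depth, so the values describe the set of libraries only.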

How the data were processed

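RNA was sequenced from sorted Muc2-mCherry+ goblet cells, sorted Gli1-tdTomato+ stromal cells and colonic organoids, 42 libraries in 12 tables, with a SMARTER mRNA-seq kit. Reads were mapped by the authors to mm10 with STAR 2.5.3 and normalized with DESeq2 1.28.1, per the labels. The counting program, annotation and strand setting are not given in the sources used here. The authors deposited a normalized signal per gene, which is the gene count divided by 1 size factor per library and table. Each column was a whole multiple of 1 step (100% of values within 0.1 of whole), so whole reads were recovered and give the depth. Columns of another series numbered 0. Rows without a gene name (4 in each GS4M2 table, up to 28.2% of values) and repeated names were left out.

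The members and all lists were chosen with earlier results of these data known. Within a table, log2(normalized count + 1) of genes with a mean of at least 10 was fitted with limma 3.58.1 (trend, R 4.3.3), and adjusted p are from limma unless another tool is named. Across tables, log2(CPM + 0.1) of genes with a mean CPM of at least 0.5 was fitted. The plain limma, edgeR, DESeq2 and CPM fits of treated against control were tested on simulated data. This was done for some comparisons, with 1 fixed spread for every gene. Interaction, segment, block, averaged and left-out fits were not tested in this way. The fold threshold applies to the log2 scale with its pseudocount, which understates changes of low genes. Named genes are the members, Smad4, Bmpr1a, Muc2, Bsg, Emb, and up to 4 called genes per list and comparison. Ly6g, Gli1 and the genes most like a member were added. Some results that this rule names are not reported here. An interaction of cytokine and time was planned and not run, because shared controls would enter both times. Treated organoids at 72 h and 12 h were compared in its place, in a fit over 16 distinct libraries that included controls. Alternatives were other pseudocounts (0.1, 10), the filter dropped or set to a mean of 50, edgeR 4.0.16 and DESeq2 1.42.0 on recovered reads, the replicate number as a block, 1 CPM fit over all libraries of a kind, unadjusted p, and each library left out. Chosen after seeing the data were a block for the Xist level (above or below 1 CPM), averaging of near-identical libraries, leaving out shared controls, and each distinct organoid library once. Precision is limited by 2 or 3 libraries a group, and by few reads for the lowest members. Gene positions are those of GENCODE M21, and promoters come from RefSeq.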

Additional observations from a re-analysis of the deposited data

Results flagged for a closer look

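In 3 cases the same deletion went with opposite directions in goblet and stromal cells of a segment, with every library of the knockout on 1 side of its controls in each cell type. Slco2a1 had log2 fold changes of -0.69 in proximal GS4M2 goblet cells and 2.21 in proximal GS4T stroma, where it was called. Slc5a8 had -0.73 in distal GS4M2 goblet cells and 1.20 in distal GS4T stroma. Slc16a13 had -0.24 in proximal GA3M2 goblet cells and 0.62 in proximal GA3T stroma. Of all genes tested in both cell types, 15.4% met the same rule for Smad4 in the proximal colon, 13.0% for Smad4 in the distal colon and 12.9% for Alk3 in the proximal colon, and of the members 1 of 9, 1 of 8 and 1 of 9 did. For Alk3 in the distal colon 10.9% of all genes and 0 of 8 members met it. The difference between the cell types was not tested in any of the 3 cases. Of the 6 values only that of Slco2a1 in stroma passed its own test. The summed epithelial markers were 587 to 1166 CPM in distal GS4T stroma and 49.6 to 150 in its controls, beside the value of Slc5a8, and their part was not tested. No group has 4 or more libraries, so single libraries were not screened as outliers.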

How the results depend on the processing

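The direction of the members held in most settings. Of 1461 member values under an alternative, 61 lost the call, 40 gained it, and 6 changed sign from a value at least 1 SE from 0. The 6 were Slc5a8 in proximal GS4T stroma with the Xist block (-0.023) and without GWTT proximal 1 (-0.023, in a range of -0.023 to 6.62 over libraries left out), Slc5a8 in proximal GA3T stroma without GWTT proximal 1 (range -1.13 to 5.54), Slc16a7 in distal GA3M2 goblet cells without GWTM2 distal 2 (range -1.41 to 0.16), and Slc16a7 after IL-17A for 12 h with the replicate block (0.10) and without Control 12 h 2 (range -1.06 to 0.009). The other 1354 stayed on their side of the threshold. In all 67 values changed sign, those beside the 6 from within 1 SE of 0 and reaching at most 1.13 in size. Of 466 counts, 311 stayed within 1.5 times the main count and 155 moved. The cause of these changes was not tested unless stated. Few reads limit Slc16a9 in organoids and Slco3a1 in goblet cells, and 2 or 3 libraries a group limit every member.

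With pseudocount 10 the genes called were 27 in proximal GA3M2, 87 in proximal GA3T, 11 in distal GA3T and 15 after IL-17A for 12 h. With pseudocount 0.1 they were 6 in proximal GA3T, and the members called after IL-17A for 72 h were 1. Without a filter 20 genes were called in proximal GA3M2 and 1 member after IL-17A for 72 h. With a mean of at least 50, 7 genes were called in proximal GA3M2, 4 after IL-1 for 12 h, and 3 members after IL-1 and 1 after IL-17A for 72 h, where Slc16a9 no longer entered the test and Slc16a7 after IL-1 had an adjusted p of 0.054. With edgeR 0 genes were called in proximal GA3T and 2 after IL-1 for 12 h, and members called were 1 after IL-17A for 72 h and 3 for IL-1 at 72 h against 12 h.

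DESeq2 called 270 genes and 5 members in proximal GS4M2, 426 and 3 in proximal GA3M2, 976 and 2 in proximal GA3T. It called 150 genes in distal GS4M2, 244 in distal GA3M2, 776 in distal GA3T, 46 and 53 after IL-1 and IL-17A for 12 h, and 2382 after IL-17A for 72 h. In the CPM fit over all libraries of a kind 9 genes and 0 members were called in proximal GS4M2, 79 and 1 in proximal GA3M2, 705 and 1 in proximal GA3T, and 9, 47 and 69 genes in distal GS4M2, GA3M2 and GA3T. That fit called 17, 21 and 1821 genes after IL-1 for 12 h, IL-17A for 12 h and IL-17A for 72 h. At an unadjusted p under 0.05 with a 2-fold change there were 567 genes and 5 members in proximal GS4M2, 911 and 3 in proximal GA3M2, 353 genes in distal GS4M2, 539 and 2 in distal GA3M2, 2446 genes in proximal GS4T, 1451 and 2 in proximal GA3T and 1197 genes in distal GA3T. For organoids the counts were 119 and 1 after IL-1 for 12 h, 140 and 1 after IL-17A for 12 h, and 2688 and 4 after IL-17A for 72 h.

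The labels do not say that a shared replicate number marks a shared animal or culture, and each comparison has only 2 such pairs, so the number was not taken as a pairing. Deviations of same-numbered libraries correlated at 0 to 0.30 in the proximal goblet, distal GA3M2 and stromal tables, -0.06 in distal GS4M2, 0.62 to 0.64 at 12 h, 0.18 to 0.20 for IL-1 and -0.10 to -0.19 for IL-17A at 72 h, and 0.58 and 0.21 between segments of GWTM2 and GWTT. With the replicate block the genes called were 260 with 4 members in proximal GS4M2, 699 with 3 in proximal GA3M2, 4 in distal GA3M2, 253 in proximal and 62 in distal GA3T, 102 after IL-1 for 12 h, 117 with 1 member after IL-17A for 12 h, 1518 after IL-1 for 72 h, and 3 with 0 members after IL-17A for 72 h. With the Xist block they were 253 in proximal GA3T, 600 with 1 member in distal GA3T, 27 and 36 after IL-1 and IL-17A for 12 h, and 5 with 0 members after IL-17A for 72 h. With near-identical libraries averaged 0 and 2 genes were called after IL-1 and IL-17A for 12 h, 3 members after IL-1 for 72 h, and 2 genes with 0 members after IL-17A for 72 h. The stromal calls of GS4T were all kept under the replicate block.

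Leaving out 1 library at a time gave 18 to 153 genes and 0 to 2 members in proximal GS4M2, 1 to 1036 and 0 to 3 in proximal GA3M2, 0 to 232 and 0 to 1 in distal GS4M2, and 0 to 638 and 0 to 3 in distal GA3M2. In stroma the ranges were 119 to 2154 and 0 to 3 in proximal GS4T, 0 to 234 genes in proximal GA3T, 1194 to 1915 and 1 to 3 in distal GS4T, and 0 to 749 and 0 to 1 in distal GA3T. In organoids they were 0 to 5 genes after IL-1 and 2 to 4 after IL-17A for 12 h, 2078 to 3396 genes and 3 to 4 members after IL-1 for 72 h, and 3 to 3577 and 0 to 4 after IL-17A for 72 h. Without the controls also held as 12 h, 1 gene and 0 members were called after IL-1 and 4 genes and 0 members after IL-17A. Members called ranged from 0 to 1 between segments of GWTM2, with Slc16a7 called without GWTM2 distal 2, from 1 to 2 for IL-1 at 72 h against 12 h, and from 0 to 3 for IL-17A. A lone library in a group is assumed to vary like the other group. The planned interaction of cytokine and time was not run, since shared controls would enter both times.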
